A study of Mus musculus with 12 samples.

Results

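Fatty acid oxidation and ketogenesis genes are described here in liver and lung of mice that carried a 4T1 mammary tumor. The set holds 31 genes out of 12393 genes named on the array. It was chosen by gene symbol, with earlier results of these data known. Every probe set of these genes was taken, while the main tests used the probe set of highest mean for each gene. All 31 genes were found, on 47 probe sets of a single gene, and 3 further probe sets each match a pair of close relatives. The genes fall into 3 for the carnitine shuttle, 12 for mitochondrial beta-oxidation, 5 for peroxisomes and 11 with other roles.

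The 4 groups were liver of tumor-bearing mice, liver of control mice, lung of tumor-bearing mice and lung of control mice, with 3 arrays each and 12 in all. All animals were female nude NCR mice, which lack a working thymus, and their age is not given in the sources used here. Tumor-bearing mice had 4T1 cells, which derive from a mammary carcinoma, engrafted orthotopically 7 days earlier. Their tissues are labelled pre-metastatic. Control mice had received PBS by the same orthotopic route and were taken at the same time. Liver and lung came from the same 3 tumor-bearing and 3 control mice.

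Fatty acids are burned mainly in mitochondria. Long-chain acyl groups enter through the carnitine shuttle and are then shortened by acyl-CoA dehydrogenases, hydratases, hydroxyacyl-CoA dehydrogenases and thiolases. Peroxisomes run a parallel pathway that shortens very long chains before mitochondria finish them. In liver the acetyl-CoA formed can be turned into ketone bodies, and the nuclear receptor PPARA switches on many of these genes during fasting.

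Values are log2 GCRMA values of probe sets. Precision is limited by the number of arrays. Between 26.7% and 28.5% of the values of an array lay at the shared lowest value of 2.04. Arrays carried the transcripts of their labelled tissue: 9 hepatocyte markers averaged 15.56 to 15.60 in tumor-bearing livers and 15.54 to 15.58 in control livers, and 10 alveolar epithelial markers averaged 14.05 to 14.27 in tumor-bearing lungs and 14.22 to 14.33 in control lungs. Lung arrays also differed in markers of hepatocytes and of cardiac muscle, and the origin of these transcripts was not tested. Hepatocyte markers averaged 9.56 in tumor-bearing lung replicate 1, against 4.28 and 4.46 on the other tumor-bearing lung arrays, and 10.75 in control lung replicate 3, against 5.38 and 3.61 on the other control lung arrays. The 10 cardiac muscle markers averaged 5.12, 7.53 and 7.19 in tumor-bearing lungs, against 3.68, 7.62 and 8.39 in control lungs, so replicate 1 of each group was low. In bulk tissue, fewer cells of a type and less RNA per cell cannot be told apart.

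In liver, no gene of the set passed the threshold (limma, Benjamini-Hochberg adjusted p under 0.05), against 1.87% of the 7712 genes tested. That background rests on every array, since leaving out any 1 of the 6 liver arrays left 0 or 1 gene past the threshold. Cidec and Fgf21 did not exceed 4 on 3 arrays and were not tested, which leaves 29 genes. Of these, 6 had an unadjusted p under 0.05 (20.7%, against 25.9% of all genes tested), namely Acads, Acaa1a, Acaa1b, Eci2, Acot1 and Plin2. The tumor-bearing mean was lower for 23 genes and higher for 6 (79.3% lower, against 60.1% of all genes), and the median change was -0.09, beside -0.07 over all genes tested. In 7 genes the tumor-bearing and control livers did not overlap (24.1%, against 33.1% of all genes). These were Cpt2, Acads, Acaa1a, Acaa1b, Eci2 and Acot1 with lower values in tumor-bearing mice (6 of 29, against 22.7% of all genes) and Plin2 with higher values (1 of 29, against 10.4%). The plot of changes by gene shows a narrow band around 0 for the mitochondrial enzymes and 4 of 5 peroxisomal genes to its left.

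**Figure D1:**
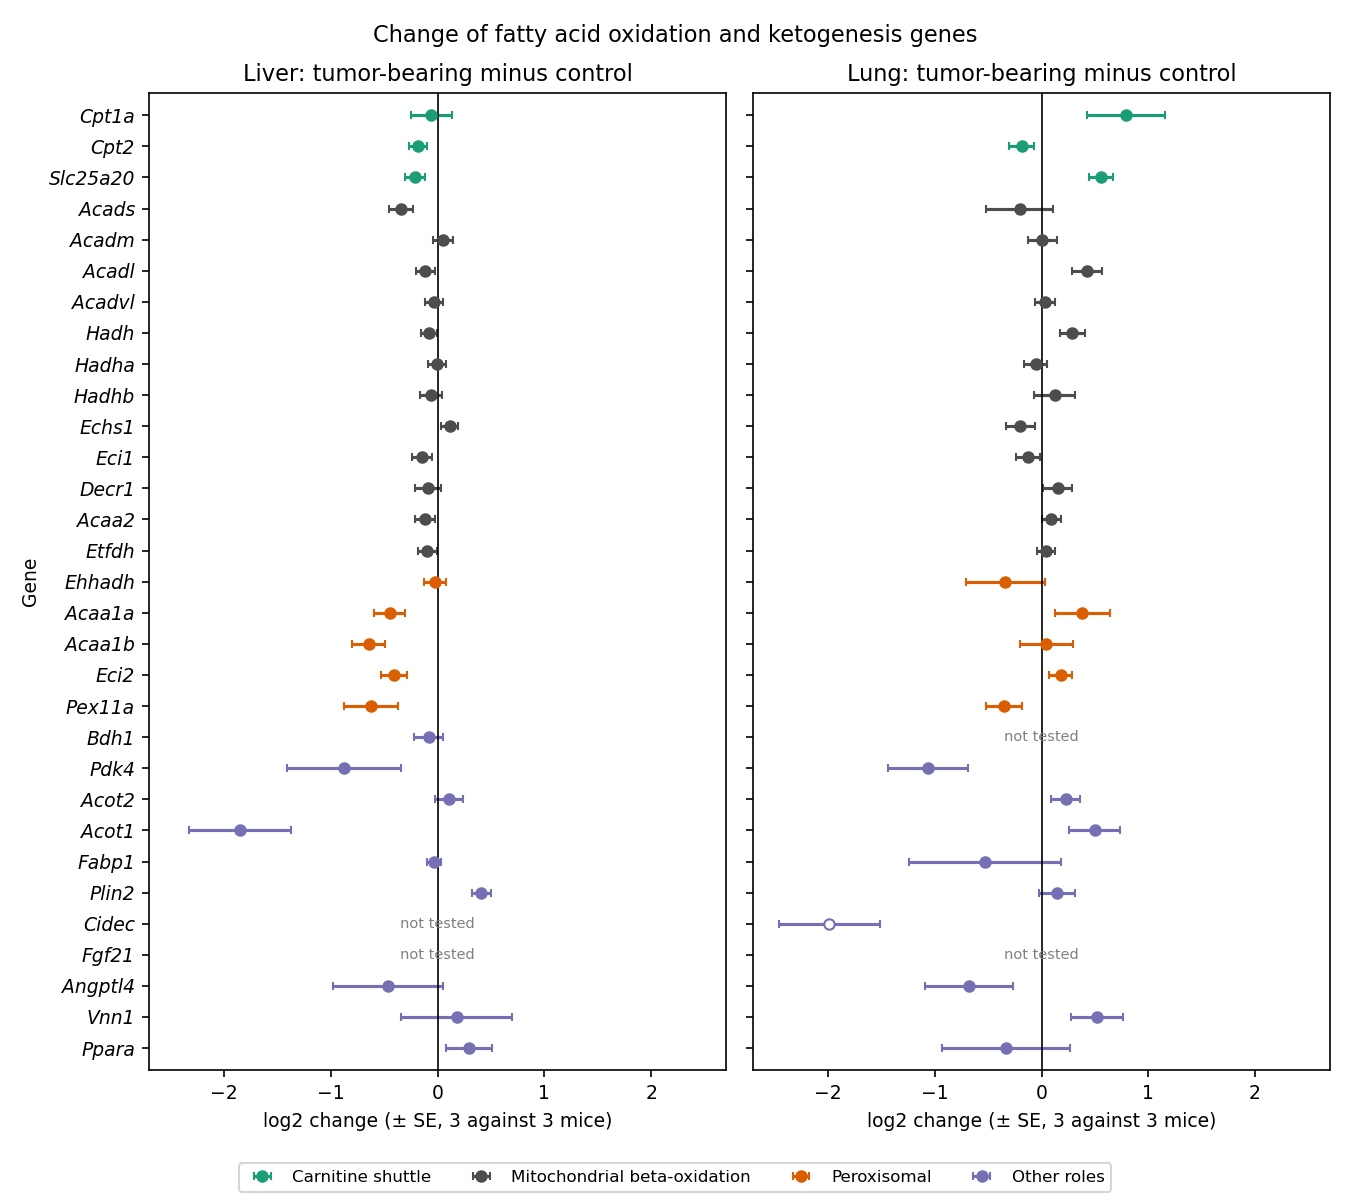
Change of each gene in tumor-bearing minus control mice (log2, x axis) in liver (left) and lung (right); points are limma estimates, bars are ± 1 SE, and colours mark the carnitine shuttle, mitochondrial beta-oxidation, peroxisomal genes and other roles. The open point, Cidec in lung, has every tumor-bearing value under 4 and its place is no size. In liver the mitochondrial changes lie between -0.34 and 0.11, while Acaa1b lies at -0.65 and Acot1 at -1.85; in lung Slc25a20 lies at 0.56 and Pdk4 at -1.07.

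The carnitine shuttle differed little between tumor-bearing and control livers. Cpt1a, the enzyme of the outer mitochondrial membrane that controls entry of long-chain acyl groups, read 13.18, 13.37 and 12.76 in tumor-bearing livers, against 12.94, 13.38 and 13.17 in control livers. The groups overlapped, and the change was -0.06 ± 0.19 (SE, n = 3 each, limma adjusted p = 0.87). Slc25a20, the translocase that carries acylcarnitines across the inner membrane, read 12.05, 12.27 and 12.06 in tumor-bearing livers, against 12.25, 12.41 and 12.36 in control livers. Only tumor-bearing replicate 2 reached the lowest control value, and the change of -0.21 ± 0.09 (SE) did not pass (limma adjusted p = 0.216). Its second probe set had a liver change of -0.02 (adjusted p = 0.927), with tumor-bearing replicate 2, at 10.73, the highest of the 6 livers. Cpt2, which reforms acyl-CoA inside the mitochondrion, read 11.68, 11.88 and 11.68 in tumor-bearing livers, against 11.90, 11.91 and 11.99 in control livers. All 3 tumor-bearing values lay below the controls, by 0.18 ± 0.08 (SE), with a limma adjusted p of 0.233.

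Mitochondrial beta-oxidation genes showed small differences in liver. Of the 12 genes 10 had lower and 2 had higher tumor-bearing means, between -0.34 and 0.11, with a median of -0.09, none past the threshold and 1 with an unadjusted p under 0.05 (8.33%, against 25.9% of all genes). That gene was Acads, the dehydrogenase of short-chain acyl-CoA. It read 10.09, 10.39 and 10.46 in tumor-bearing livers, against 10.64, 10.60 and 10.73 in control livers. Every tumor-bearing value was below every control value (change -0.34 ± 0.12, SE, limma adjusted p = 0.143). The dehydrogenases of longer chains stood nearer to 0, with changes of 0.05 for medium-chain Acadm, -0.11 for long-chain Acadl and -0.03 for very-long-chain Acadvl. Both subunit genes of the trifunctional protein, which carries out the last 3 steps for long chains, had changes of -0.004 for Hadha and -0.06 for Hadhb. Hadh, the hydroxyacyl-CoA dehydrogenase of shorter chains, had -0.08, and the hydratase gene Echs1 had 0.11. Eci1 and Decr1, which handle double bonds of unsaturated fatty acids, had -0.15 and -0.09. Acaa2, the mitochondrial thiolase, had -0.12, and Etfdh, which passes the electrons on to ubiquinone, had -0.10. In each of these the tumor-bearing and control values overlapped. A second probe set of Decr1 had a change of -0.50, with tumor-bearing replicate 1 at 7.57 against 8.85 and 8.65 on the other tumor-bearing arrays and 8.81 to 8.90 in control livers. Of 13 further probe sets above the filter in liver, which belong to 10 members, 7 had a change opposite in sign to that of the probe set used. These were 1 of Acaa2 (0.20), both others of Hadh (0.07 and 0.09), 1 of Hadhb (0.06), both others of Cpt1a (0.12 and 0.07) and 1 of Fabp1. The Hadh probe set at 0.07 read 13.594, 13.72 and 13.66 in tumor-bearing livers, against 13.592, 13.586 and 13.57 in control livers, higher without overlap. The probe sets used for Cpt1a, Hadh and Hadhb can also bind related sequences, as can the further ones of Cpt1a at 0.12 and Hadh at 0.09.

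Peroxisomal genes had lower means in tumor-bearing livers in all 5 cases (against 60.1% of all genes), with a median change of -0.45, beside -0.07 over all genes. None passed the threshold, and 3 were lower without overlap (60%, against 22.7% of all genes). Acaa1b, a peroxisomal thiolase that is abundant in liver, read 14.27, 14.76 and 14.29 in tumor-bearing livers, against 15.06, 15.22 and 14.98 in control livers. The groups did not overlap, and the change was -0.65 ± 0.16 (SE, n = 3 each, 1.57-fold lower, limma adjusted p = 0.0851). Its close relative Acaa1a read 11.55, 11.71 and 11.31 in tumor-bearing livers, against 11.87, 12.19 and 11.87 in control livers. All tumor-bearing values lay below the controls (change -0.45 ± 0.14, SE, limma adjusted p = 0.129). A second Acaa1a probe set had a change of -0.30, again without overlap. The 2 probe sets that match both thiolase genes had changes of -0.21 and -0.27, and on both the highest tumor-bearing value, 13.73 and 14.89, came from replicate 2 and stood beside lowest control values of 13.64 and 14.93. The probe set used for Acaa1a can also bind related sequences, so how the signal divides between both genes is uncertain.

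Eci2, an isomerase for unsaturated fatty acids found in peroxisomes and mitochondria, read 12.70, 13.11 and 12.92 in tumor-bearing livers, against 13.30, 13.40 and 13.26 in control livers. The groups did not overlap (change -0.41 ± 0.12, SE, limma adjusted p = 0.114). Pex11a, which takes part in peroxisome division, read 10.28, 11.20 and 10.80 in tumor-bearing livers, against 11.14, 11.48 and 11.52 in control livers. Tumor-bearing replicate 2 overlapped the controls (change -0.62 ± 0.25, SE, limma adjusted p = 0.194), and the second Pex11a probe set had a change of -0.63. Ehhadh, the bifunctional enzyme of the middle steps, read 12.67, 12.73 and 12.60 in tumor-bearing livers, against 12.75, 12.51 and 12.81 in control livers. Its change was -0.02 ± 0.10 (SE, limma adjusted p = 0.899). In all 4 of the other peroxisomal genes, tumor-bearing replicate 2 was the highest tumor-bearing array, as the plot of liver values by array shows.

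**Figure D2:**
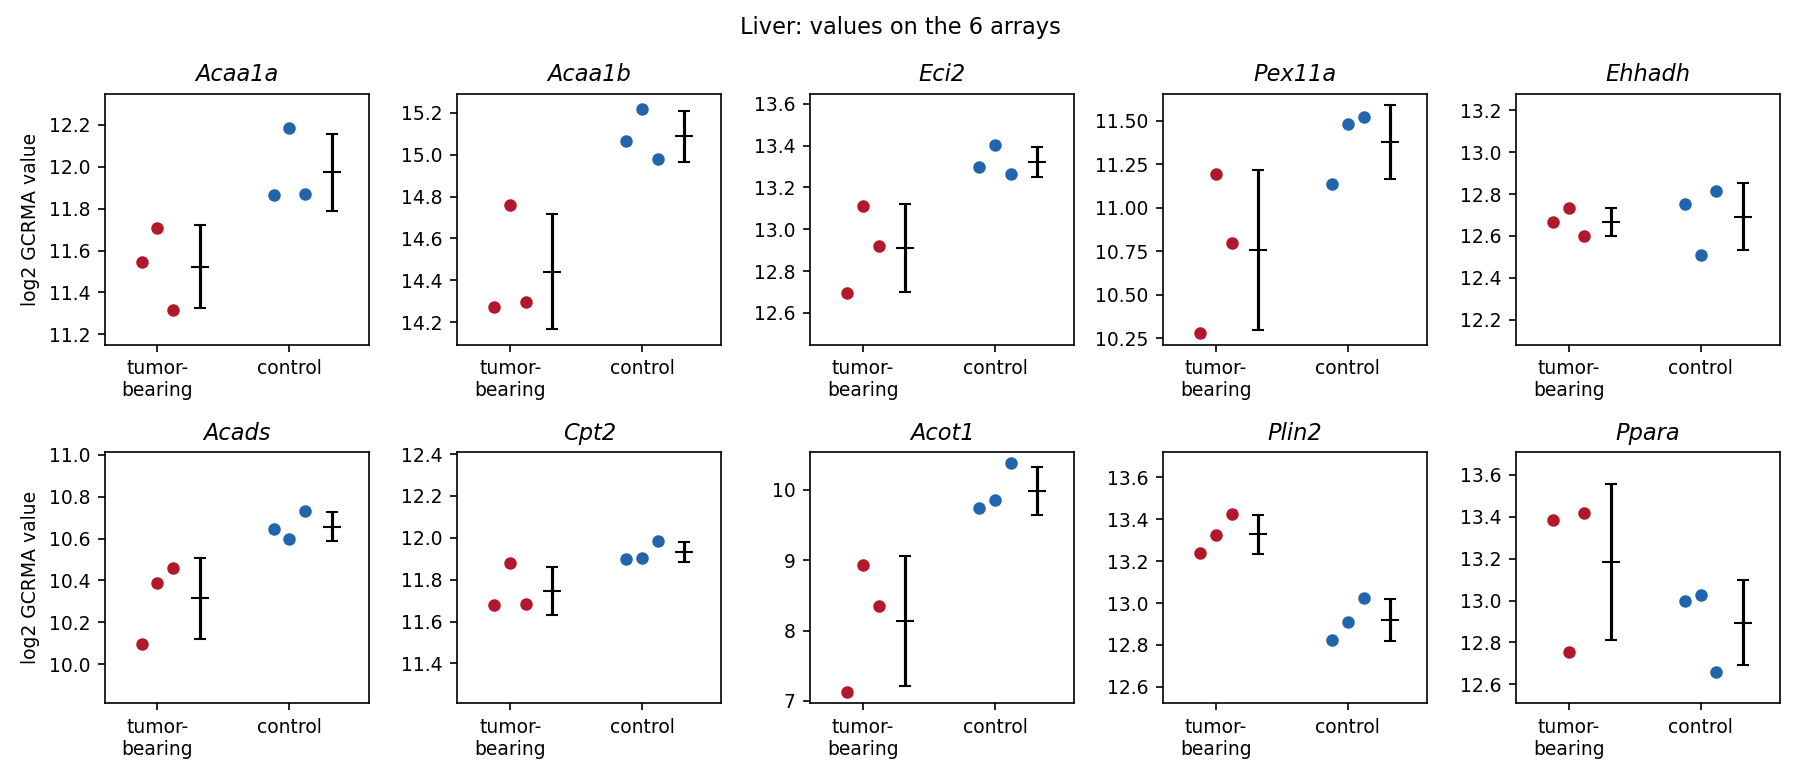
Log2 GCRMA values (y axis) of 10 genes on the 6 liver arrays; points are arrays, and the bar beside them is the mean ± SD of 3 tumor-bearing (red) or 3 control (blue) mice. Acaa1a, Acaa1b, Eci2, Acads, Cpt2, Acot1 and Plin2 show no overlap between groups, while Pex11a, Ehhadh and Ppara do; each panel has its own range.

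The mean over the 5 peroxisomal genes was 0.43 lower in tumor-bearing than in control livers, with a pooled SD between arrays of 0.16, and the mean over the 15 mitochondrial shuttle and beta-oxidation genes was 0.09 lower, with an SD of 0.08. As deviations from the liver mean, mitochondrial minus peroxisomal genes gave 0.25, 0.03 and 0.22 on the tumor-bearing arrays, against -0.16, -0.24 and -0.11 on the control arrays. The tumor-bearing arrays all lay above the control arrays, by 0.34 on average with a pooled SD of 0.09 (n = 3 each). No p is given for a mean over chosen genes. Over the alternatives tried the difference ran from 0.29 to 0.41, lowest without Pex11a and highest without tumor-bearing replicate 2. In the plot of organelle means the liver groups stand further apart for these 5 peroxisomal than for the mitochondrial genes. Of 19 other peroxisomal oxidation genes only 7 had lower means in tumor-bearing livers (36.8%, median change 0.05), so that list did not share the direction.

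**Figure D3:**
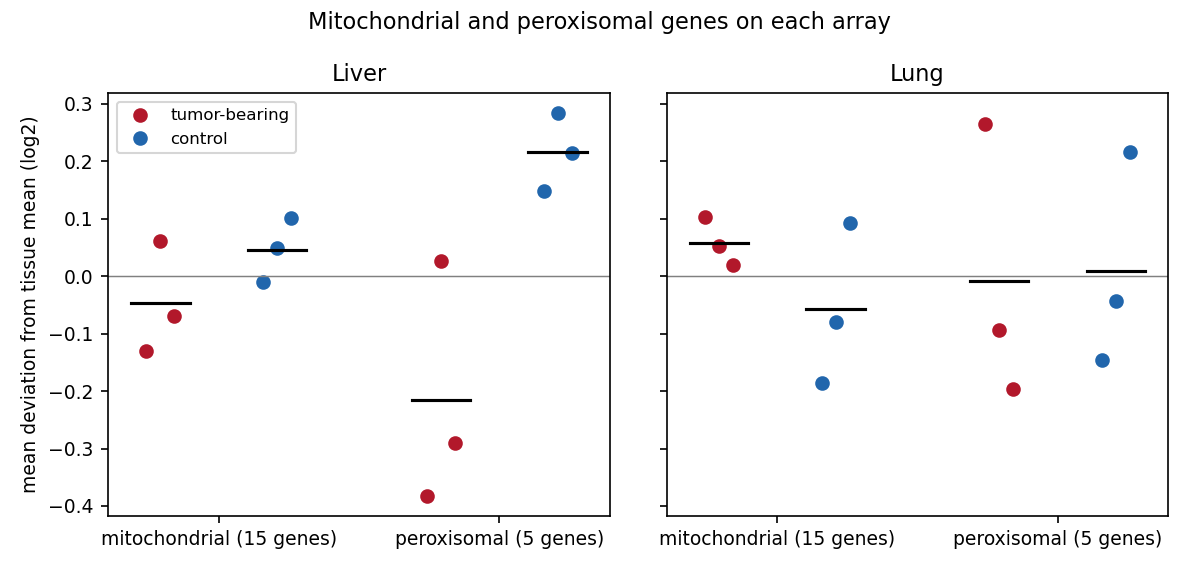
Mean deviation from the tissue mean (log2, y axis) over 15 mitochondrial and 5 peroxisomal genes on each array in liver (left) and lung (right); points are tumor-bearing (red) and control (blue) arrays and black lines group means. Peroxisomal genes in liver lie at -0.38, 0.03 and -0.29 on tumor-bearing arrays and at 0.15, 0.28 and 0.21 on control arrays; in lung the groups overlap.

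The promoters of the thiolase pair are shown because both genes read lower together in tumor-bearing livers. The sequences are the 250 bases before the start site from RefSeq (GRCm38.p6), 5′ to 3′ on the gene's strand. Acaa1a lies at chr9:119341044-119341293 on the plus strand and Acaa1b at chr9:119157094-119157343 on the minus strand.
Acaa1a: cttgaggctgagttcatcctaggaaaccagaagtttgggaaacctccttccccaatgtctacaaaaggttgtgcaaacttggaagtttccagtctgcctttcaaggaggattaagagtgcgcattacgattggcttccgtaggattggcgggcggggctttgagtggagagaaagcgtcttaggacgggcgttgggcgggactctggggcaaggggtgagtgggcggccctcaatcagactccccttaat
Acaa1b: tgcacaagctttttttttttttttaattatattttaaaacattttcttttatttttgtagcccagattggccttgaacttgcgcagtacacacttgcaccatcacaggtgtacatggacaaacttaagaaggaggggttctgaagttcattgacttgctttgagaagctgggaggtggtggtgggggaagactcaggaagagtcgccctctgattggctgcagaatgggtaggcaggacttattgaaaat
Over 216 aligned bases the windows were 63.4% identical. The Acaa1a window had 53.6% G and C with 10 CG pairs, and the Acaa1b window had 41.6% with 2 CG pairs. Neither holds the letters AGGTCA, the element that nuclear receptors such as PPARA with RXR bind, on either strand, which says only that these letters are not in this window.

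The change farthest from 0 in liver was that of Acot1. This gene, a cytosolic thioesterase that frees fatty acids from CoA, had values of 7.13, 8.93 and 8.35 in tumor-bearing livers, against 9.73, 9.85 and 10.37 in control livers. The groups did not overlap, and the change of -1.85 ± 0.48 (SE, 3.61-fold lower) did not pass in the liver fit (limma adjusted p = 0.0957). In a fit of all 12 arrays, where lung arrays share in the estimate of spread, it passed (limma adjusted p = 0.0212). The probe set shared by Acot1 and its mitochondrial relative Acot2 read 7.59, 8.26 and 7.70 in tumor-bearing livers, against 8.56, 8.61 and 9.04 in control livers, also without overlap. Acot2 alone read 4.51 to 4.53 in tumor-bearing livers and 4.14 to 4.61 in control livers, just above the filter value of 4. Signals of such close relatives cannot be divided with certainty on an array.

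Plin2, which coats lipid droplets, had the smallest adjusted p of the set in liver. It read 13.24, 13.32 and 13.43 in tumor-bearing livers, against 12.82, 12.91 and 13.03 in control livers. All tumor-bearing values lay above the controls (change 0.41 ± 0.09, SE, 1.33-fold higher, limma adjusted p = 0.071), and at this threshold it passed, among the alternatives tried, only when the spread was fitted with a trend on expression level (adjusted p = 0.0478). Pdk4, the kinase that shuts off pyruvate dehydrogenase, read 5.07, 5.30 and 3.43 in tumor-bearing livers, against 5.09, 5.91 and 5.43 in control livers. Its change of -0.88 ± 0.54 (SE, limma adjusted p = 0.352) came with overlap. Angptl4, a secreted inhibitor of lipoprotein lipase, read 9.01, 10.70 and 9.07 in tumor-bearing livers, against 9.64, 10.04 and 10.51 in control livers, again with overlap (limma adjusted p = 0.597).

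In several members the values of tumor-bearing and control livers overlapped. Ppara, the receptor itself, read 13.38, 12.75 and 13.42 in tumor-bearing livers, against 13.00, 13.03 and 12.66 in control livers (change 0.29 ± 0.21, SE, limma adjusted p = 0.431). Bdh1, the mitochondrial enzyme that makes the ketone body 3-hydroxybutyrate, read 12.15, 12.54 and 12.49 in tumor-bearing livers, against 12.35, 12.59 and 12.50 in control livers. It is the member that acts in ketogenesis itself, and its groups overlapped (change -0.09 ± 0.13, SE, limma adjusted p = 0.715). Fabp1, the liver fatty acid binding protein, read 16.63 to 16.67 in tumor-bearing livers and 16.65 to 16.72 in control livers. Vnn1, a pantetheinase that recycles a part of CoA, spread from 7.90 to 8.33 in tumor-bearing livers and from 6.76 to 8.61 in control livers. The hormone gene Fgf21, which liver secretes in fasting, lay at or near the lowest value on all 6 liver arrays, at most 2.05 in tumor-bearing and 2.77 in control livers, as did Cidec, a lipid droplet fusion gene, at most 2.35 in tumor-bearing and 2.41 in control livers.

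Promoters of Plin2 and Fabp1 are shown because they hold the receptor element in capitals. The letters AGGTCA on either strand occurred in 14.0% of 32851 promoters of this length and in 6 of the 27 members matched (22.2%), which were Acadm, Acadvl, Cpt1a, Echs1, Fabp1 and Plin2. The direct repeat AGGNCANAGGNCA on either strand occurred in 0.338% of promoters and in 1 member, Fabp1, from -67 to -55 before the start site on the minus strand, where it overlaps a match of AGGTCA. The stricter AGGTCANAGGTCA occurred in 0.0335% of promoters and in 0 members. Acaa2, Angptl4, Decr1 and Vnn1 had no entry. Plin2 lies at chr4:86670060-86670309 on the minus strand and Fabp1 at chr6:71199629-71199878 on the plus strand (RefSeq, GRCm38.p6).
Plin2: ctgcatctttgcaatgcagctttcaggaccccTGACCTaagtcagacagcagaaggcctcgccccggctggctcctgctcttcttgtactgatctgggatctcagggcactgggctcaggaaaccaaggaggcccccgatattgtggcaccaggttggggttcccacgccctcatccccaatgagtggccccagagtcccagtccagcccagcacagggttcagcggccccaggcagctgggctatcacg
Fabp1: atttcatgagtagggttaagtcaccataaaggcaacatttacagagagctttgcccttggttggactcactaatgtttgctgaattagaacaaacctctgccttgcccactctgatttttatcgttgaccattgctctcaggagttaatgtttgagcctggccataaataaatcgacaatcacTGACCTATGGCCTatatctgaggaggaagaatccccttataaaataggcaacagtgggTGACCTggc
Both genes carry the element, and Plin2 read higher in tumor-bearing livers and Fabp1 overlapped. A match describes letters and not a bound site.

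Markers of 2 immune cell types also had higher averages in tumor-bearing livers. Kupffer cell and macrophage markers (10 measured) averaged 8.40 to 8.61 in tumor-bearing livers and 8.08 to 8.34 in control livers, with linear values summing to 18953 to 22124 and 14928 to 18351, and 2 of 10 were under 4 on all arrays of both groups. Neutrophil markers (8 measured) averaged 4.95 to 5.20 in tumor-bearing livers and 3.46 to 4.56 in control livers, with sums of 1133 to 2472 and 117 to 592, and 4 of 8 were under 4 throughout. None of these markers passed the threshold in liver (limma), where 3 of 4 tested neutrophil genes (75%) and 1 of 7 macrophage genes (14.3%) had an unadjusted p under 0.05, against 25.9% of all genes. Their part in the values above was not tested.

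Other genes of the pathway were counted from lists, whose shares with lower means are set against 60.1% of all genes tested in liver. Among the other mitochondrial oxidation genes 9 of 10 (90%) had lower means in tumor-bearing livers (median change -0.11), and none passed. The smallest p belonged to Crat, a carnitine acetyltransferase, which read 6.50, 7.22 and 6.91 in tumor-bearing livers, against 7.93, 7.58 and 7.57 in control livers (limma adjusted p = 0.0951), and to Acadsb, a dehydrogenase of branched short chains (change -0.25, adjusted p = 0.11). Of 4 ketone body genes 2 had lower and 2 higher means, led by the thiolase gene Acat1 (0.56, adjusted p = 0.248) and the monocarboxylate carrier gene Slc16a1 (0.22). Beyond the 5 peroxisomal members, 7 of 19 other peroxisomal oxidation genes (36.8%) had lower means (median change 0.05), and 1 of the 19 had an unadjusted p under 0.05 (5.26%, against 25.9% of all genes). That was Nudt19, a CoA-cleaving hydrolase (change -0.40, adjusted p = 0.0912), and next came Crot, a carnitine octanoyltransferase (0.37, adjusted p = 0.198). Of 13 peroxisome biogenesis genes 8 had lower means (61.5%, median -0.01), with Pex13 at -0.37 (adjusted p = 0.0708) and Pex6 at -0.41 (adjusted p = 0.0867), both import factors. No p is given for these differences between lists.

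Further PPARA targets had lower means in tumor-bearing livers in 15 of 16 cases, with a median change of -0.45, beside -0.07 over all genes. None passed. Cyp4a14 entered the fit only through the control livers, and of the other 15 genes 14 had lower means and 7 had an unadjusted p under 0.05 (46.7%, against 25.9% of all genes). Cyp4a14, a fatty acid hydroxylase, read 3.41, 3.97 and 3.84 in tumor-bearing livers, against 5.64, 7.34 and 5.37 in control livers. All 3 tumor-bearing livers lay under 4, so no p is given for it. Aldh3a2, a fatty aldehyde dehydrogenase, read 10.99, 10.94 and 11.04 in tumor-bearing livers, against 12.12, 12.09 and 11.56 in control livers (change -0.93 ± 0.17, SE, adjusted p = 0.0567). Of 16 PPAR cofactors and related regulators 11 had lower means (68.8%), led by Klf15 (-0.71, adjusted p = 0.0567) and Rxrb, a partner receptor (-0.56, adjusted p = 0.0692). Of 20 lipid droplet and fatty acid handling genes 13 had lower means (65%), led by Plin5, a droplet coat protein of oxidative tissues. It read 7.82, 8.96 and 8.66 in tumor-bearing livers, against 10.10, 10.47 and 10.62 in control livers (change -1.91 ± 0.32, SE, adjusted p = 0.0529). Dgat1, which makes triglyceride, followed (-0.54, adjusted p = 0.0668). Plin2 and Plin5, both droplet coat proteins, stood on opposite sides of the controls. Acot4 and Mlycd stand in 2 lists each.

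In lung no gene of the set passed either, against 0.734% of the 7907 genes tested (limma adjusted p under 0.05), which is 58 genes and became 0 to 14 genes when any 1 of the 6 lung arrays was left out. Bdh1 and Fgf21 were not tested, which leaves 29. An unadjusted p under 0.05 was seen for 5 (17.2%, against 13.2% of all genes): Slc25a20, Acadl, Hadh, Pdk4 and Cidec. The same 5 were those whose groups did not overlap (17.2%, against 18.6% of all genes), 3 with higher values in tumor-bearing lungs (8.99% of all genes) and 2 with lower values (9.57%). Cidec entered the fit only through the control lungs, so it had to differ. Without it 4 of 28 genes had an unadjusted p under 0.05 and the same number did not overlap (14.3%). Of the 29, 17 had higher means (47.1% of all genes) and 12 lower means, with a median change of 0.04 beside -0.01 over all genes.

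Among immune cell markers, those of neutrophils were higher in tumor-bearing lungs, while those of macrophages went both ways. Neutrophil markers (8 measured) averaged 9.58 to 10.46 in tumor-bearing lungs and 5.96 to 6.86 in control lungs, with linear values summing to 90413 to 104568 and 6382 to 22499. All 8 were higher without overlap, against 8.99% of all genes (median change 3.24). In limma 3 passed the threshold, namely Ngp, Mmp8 and Cd177, against 0.734% of all genes. Of the 8, Cxcr2, Mmp8 and Cd177 were under 4 on all control lungs. These 3 entered the fit only through the tumor-bearing lungs, so they had to differ. S100a8, S100a9, Csf3r, Mmp9 and Ngp were not bound by the filter in this way. Their changes ran from 2.37 to 6.10, and of these Ngp alone passed. Of 6 tested macrophage genes 2 were higher without overlap (33.3%, against 8.99% of all genes), Csf1r by 0.39 and Adgre1 by 0.46, and neither passed. Mrc1 and Cd68 had lower means, with changes of -0.41 and -0.04. Chil3 and Itgax had changes of 0.04 and 0.01, and the median over the tested macrophage genes was 0.02. The part of these cells in the lung values of the members was not tested.

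Slc25a20, the inner membrane translocase, had the smallest adjusted p of the set in lung. It read 10.70, 10.40 and 10.70 in tumor-bearing lungs, against 10.07, 9.96 and 10.11 in control lungs. The groups stood apart, with a change of 0.56 ± 0.12 (SE, n = 3 each, 1.47-fold higher, limma adjusted p = 0.123), and the fit of all 12 arrays called it (adjusted p = 0.0211). Its second probe set read 8.31, 8.15 and 8.04 in tumor-bearing lungs, against 7.61, 7.58 and 7.76 in control lungs, likewise without overlap. Cpt1a read 11.37, 11.93 and 11.04 in tumor-bearing lungs, against 10.50, 10.14 and 11.32 in control lungs. Control replicate 3 overlapped (change 0.79 ± 0.36, SE, limma adjusted p = 0.437). Of the other Cpt1a probe sets, 1 had a change of 1.25 with the same array overlapping, and 1 had a change of 0.36 with no overlap, at 10.30, 10.16 and 10.12 in tumor-bearing lungs, against 9.58, 9.99 and 9.92 in control lungs. Cpt2 leaned the other way, with a change of -0.19 ± 0.12 (SE) and overlap.

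Of the 12 mitochondrial beta-oxidation genes 8 had higher and 4 lower means in tumor-bearing lungs, between -0.20 and 0.43. Acadl, the long-chain dehydrogenase, read 11.75, 11.90 and 11.99 in tumor-bearing lungs, against 11.21, 11.50 and 11.65 in control lungs (change 0.43 ± 0.14, SE, limma adjusted p = 0.291). Its control replicate 1, the lowest of the 6, was also the array lowest in cardiac markers. Hadh read 13.07, 12.81 and 12.93 in tumor-bearing lungs, against 12.55, 12.58 and 12.80 in control lungs. These groups barely missed each other (change 0.29 ± 0.12, SE, limma adjusted p = 0.375), and both other Hadh probe sets also had higher tumor-bearing means, by 0.20 and 0.18, with overlap. The remaining 10 genes overlapped.

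Peroxisomal genes showed no common direction in lung. Acaa1a, Acaa1b and Eci2 had changes of 0.38, 0.05 and 0.18, Ehhadh and Pex11a had -0.34 and -0.36, and all 5 overlapped (limma adjusted p of 0.454 to 0.956). Acaa1a read 8.97, 8.41 and 8.76 in tumor-bearing lungs, against 8.35, 7.88 and 8.77 in control lungs. Acaa1b read 9.85, 9.11 and 9.11 in tumor-bearing lungs, against 9.42, 9.02 and 9.501 in control lungs. The highest array of each group, tumor-bearing replicate 1 and control replicate 3, was the array rich in hepatocyte transcripts, and without both the Acaa1b change was -0.11. With 1 array left out the lung change of Ehhadh ran from -0.63 to -0.05 (without tumor-bearing replicates 1 and 3), that of Acaa1a from 0.16 to 0.60 (without control replicates 2 and 3), that of Eci2 from 0.11 to 0.24 and that of Pex11a from -0.47 to -0.21. Eci2 read 11.16, 10.97 and 11.05 in tumor-bearing lungs, against 10.73, 10.99 and 10.91 in control lungs. Ehhadh read 6.48, 5.88 and 5.31 in tumor-bearing lungs, against 5.68, 6.31 and 6.68 in control lungs, with the same 2 arrays highest. Pex11a read 8.66, 8.96 and 8.59 in tumor-bearing lungs, against 8.89, 9.38 and 9.01 in control lungs. Its second probe set, with a change of -0.73, did not overlap, at 7.15, 7.72 and 7.78 in tumor-bearing lungs, against 7.96, 8.52 and 8.37 in control lungs. Mitochondrial minus peroxisomal means were -0.16, 0.15 and 0.22 on tumor-bearing and -0.04, -0.04 and -0.12 on control arrays. These overlapped, and the difference of 0.13 had a pooled SD of 0.15.

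**Figure D4:**
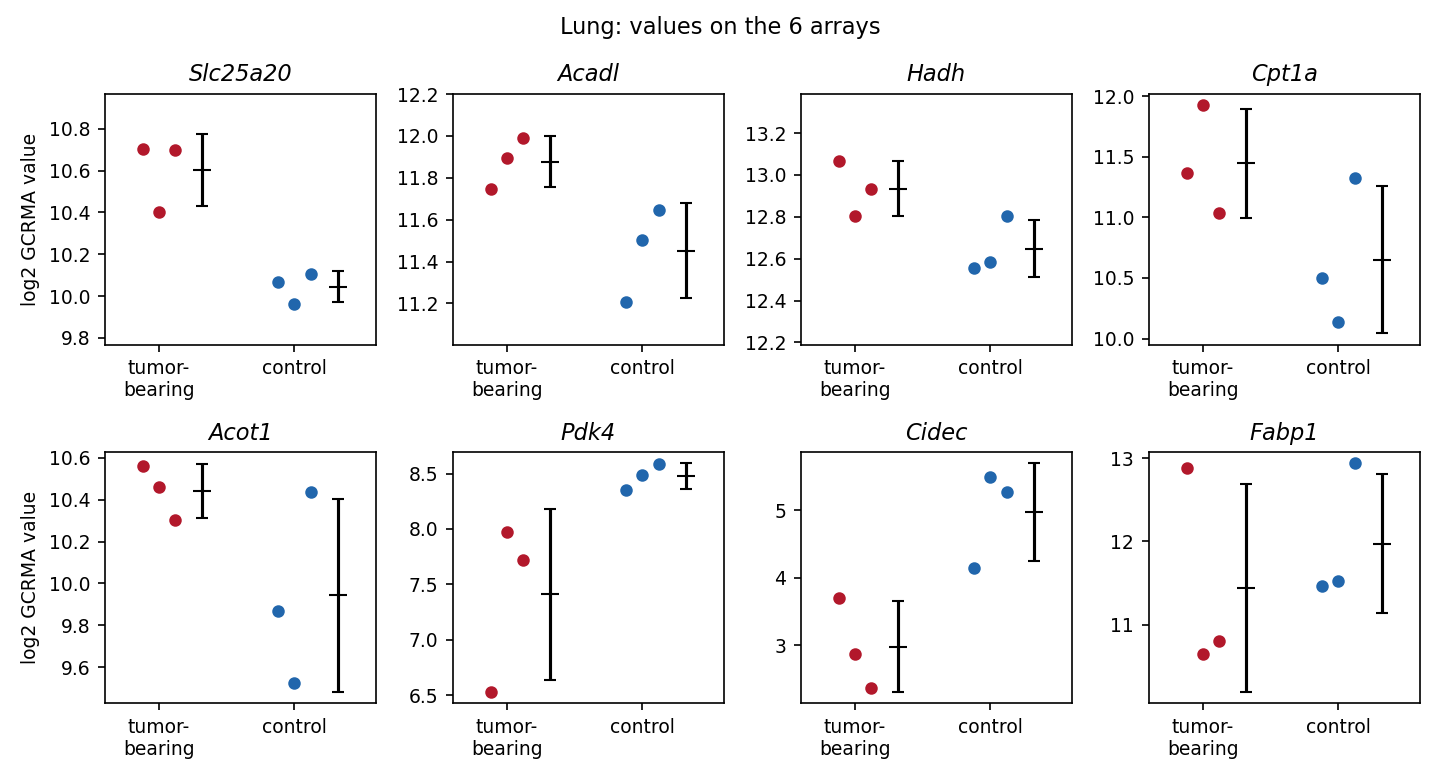
Log2 GCRMA values (y axis) of 8 genes on the 6 lung arrays; points are arrays, and the bar beside them is the mean ± SD of 3 tumor-bearing (red) or 3 control (blue) mice. Slc25a20, Acadl, Hadh, Pdk4 and Cidec show no overlap between groups, and Fabp1 shows 1 high array in each group, at 12.88 and 12.94; each panel has its own range.

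Pdk4 and Cidec were the members whose tumor-bearing lungs all lay below the controls. Pdk4 read 6.53, 7.98 and 7.72 in tumor-bearing lungs, against 8.35, 8.49 and 8.58 in control lungs. The groups did not overlap (change -1.07 ± 0.38, SE, 2.09-fold lower, limma adjusted p = 0.317). Replicate 1 of each group, lowest in Pdk4 within its group, was also the array lowest in cardiac markers within its group. The linear sums of the cardiac list ran from 2845 to 12413.5 in tumor-bearing and from 1391 to 23157 in control lungs, with 3 of 10 markers under 4 throughout, and their part in the Pdk4 values was not tested. Over all alternatives tried the Pdk4 change ran from -1.35 to -0.57.

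Cidec read 3.70, 2.87 and 2.37 in tumor-bearing lungs, against 4.14, 5.50 and 5.26 in control lungs. Every tumor-bearing value was under 4, so Cidec was at least 1.95-fold lower against that value. It entered the fit only through the control lungs, and no p is given for it. Cidec is best known from adipocytes. Of 7 adipocyte markers measured, 5 were under 4 on all lung arrays, and their mean was 3.22 to 3.25 in tumor-bearing lungs, against 3.02, 3.55 and 3.77 in control lungs, with linear sums of 234 to 336 and 196 to 952. Adipoq, the adiponectin gene, lay at 2.23, 2.04 and 2.04 in tumor-bearing lungs, against 2.04, 3.10 and 3.96 in control lungs. Fabp4, the adipocyte fatty acid binding protein, read 8.24, 7.55 and 7.54 in tumor-bearing lungs, against 7.36, 9.14 and 9.82 in control lungs. Control replicates 2 and 3 were the highest lung arrays for Cidec, Adipoq and Fabp4 alike. Lipe, a lipase gene of the same list, went the other way. It read 3.67, 4.72 and 4.95 in tumor-bearing lungs, against 3.47, 4.37 and 4.12 in control lungs, with overlap. The adipocyte list thus had no common direction in lung. The part of these cells in the Cidec values was not tested.

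Fabp1 read 12.88, 10.65 and 10.80 in tumor-bearing lungs, against 11.46, 11.52 and 12.94 in control lungs. Its highest value in each group was on the array rich in hepatocyte markers, where Alb, the albumin gene, read 14.39 (tumor-bearing replicate 1) and 14.65 (control replicate 3). Elsewhere Alb lay between 8.96 and 10.38 in tumor-bearing and between 9.31 and 11.08 in control lungs. The linear sums of the hepatocyte list ran from 846 to 29725 in tumor-bearing and from 709 to 44353 in control lungs. On the 4 remaining arrays Fabp1 stood at 10.65 and 10.80 in tumor-bearing lungs, against 11.46 and 11.52 in control lungs. With so few arrays in each group, a lack of overlap is not read as a difference. Without both arrays the limma adjusted p was 0.358, and 0 of the 7804 genes tested passed. The part of hepatocyte transcripts in other lung values was not tested. Angptl4 (6.50, 7.91 and 7.17 in tumor-bearing lungs, against 7.30, 8.17 and 8.15 in control lungs), Acot1, Plin2, Vnn1 and Ppara overlapped between groups, and none passed the threshold. Ppara was low in lung and spread widely, at 5.04, 3.76 and 6.22 in tumor-bearing lungs, against 5.59, 5.08 and 5.35 in control lungs.

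Other pathway genes in lung gave no call in the 7 lists, whose counts stand beside 47.1% of all genes with higher means. The other mitochondrial oxidation genes had 7 of 9 lower means (median -0.02), led by Acad11, an acyl-CoA dehydrogenase, at 8.73, 8.79 and 8.74 in tumor-bearing lungs, against 9.19, 9.004 and 9.21 in control lungs (limma adjusted p = 0.167), and then Crat (-0.30). Of the ketone body genes Slc16a1 was 0.28 higher (adjusted p = 0.316) and its relative Slc16a7 0.60 lower (adjusted p = 0.356). The other peroxisomal oxidation genes had 10 of 16 lower means, led by Amacr, a racemase of branched chains (-0.47), and Crot (-0.23), with 0 at an unadjusted p under 0.05 (against 13.2% of all genes). Among peroxisome biogenesis genes 7 of 13 had higher means, with Pex19, a chaperone of membrane proteins, at 0.50 (adjusted p = 0.182) and Pex26 at -0.55. Further PPARA targets had 9 of 13 lower means (median -0.02), led by the phosphatidate phosphatase gene Lpin2 (-0.40) and Aldh3a2 (-0.27). Of the regulators, Lpin1, a phosphatase that also acts as a PPARA cofactor, read 8.90, 8.89 and 9.27 in tumor-bearing lungs, against 9.53, 9.88 and 10.02 in control lungs (adjusted p = 0.136). Klf15 read 8.21, 10.004 and 9.90 in tumor-bearing lungs, against 10.84, 11.24 and 10.79 in control lungs (change -1.59 ± 0.50, SE, adjusted p = 0.26). In the droplet list 7 of 14 had higher means, led by Dgat1 at 8.92, 8.94 and 8.80 in tumor-bearing lungs, against 8.48, 8.55 and 8.44 in control lungs (adjusted p = 0.136), and then Pnpla2, the triglyceride lipase (-0.25).

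The lung change minus the liver change was tested as an interaction on all 12 arrays. Both organs came from the same mice while this fit took the arrays as independent, so its p values leave out that dependence. Of 30 genes tested 1 passed, Slc25a20, against 1.55% of the 8433 genes tested and 1.03% called in its direction. Its tumor-associated change was 0.56 in lung and -0.21 in liver, a difference of 0.77 ± 0.15 (SE, limma adjusted p = 0.0407). In lung all tumor-bearing values exceeded the controls, while in liver 2 of 3 lay below all controls on the probe set used and the second probe set had a change of -0.02. The difference kept its direction under all 24 alternatives, between 0.54 and 0.87, but the call was lost when any 1 of 10 of the 12 arrays was left out (adjusted p of 0.0688 to 0.095), all but lung tumor-bearing replicate 2 and liver tumor-bearing replicate 2. It was also lost on the second probe set (0.54, adjusted p = 0.152), without both lung arrays rich in hepatocyte transcripts (0.75, adjusted p = 0.121) and with the array number as a block (adjusted p = 0.165). That block left 14 of the 8433 genes past the threshold, against 131 in the main fit.

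The Slc25a20 promoter is shown as that of the member that passed. It lies at chr9:108661886-108662135 on the plus strand (RefSeq, GRCm38.p6, 250 bases before the start site).
Slc25a20: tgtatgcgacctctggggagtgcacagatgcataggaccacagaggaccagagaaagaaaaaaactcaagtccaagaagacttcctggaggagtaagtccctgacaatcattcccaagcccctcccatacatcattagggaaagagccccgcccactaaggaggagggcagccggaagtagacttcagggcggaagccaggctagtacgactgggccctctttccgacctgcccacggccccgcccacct
The window had 56.8% G and C and 8 CG pairs, and the letters AGGTCA are not in it on either strand.

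An unadjusted p under 0.05 for the difference between tissues was found for 6 more members (7 in all, 23.3%, against 17.2% of all genes). Acot1 differed by 2.35 ± 0.57 (SE, limma adjusted p = 0.0768). Its arrays read 10.56, 10.46 and 10.30 in tumor-bearing lungs, against 9.87, 9.52 and 10.44 in control lungs, where the groups overlapped, and the liver values stood lower in tumor-bearing mice. Acadl differed by 0.54 (adjusted p = 0.164), Hadh by 0.37 (adjusted p = 0.217), Acaa1a by 0.83 (adjusted p = 0.219) and Eci2 by 0.59 (adjusted p = 0.115), each higher in lung than in liver. The sixth was Cidec, which exceeded 4 only in control lungs and so had to differ, and neither its size nor its p is given. The 7 include Cidec, so their share is not read as above that of all genes. The median difference over members was 0.13, beside 0.05 over all genes. Of the 98 genes of the pathway lists tested 1 passed (1.02%, against 1.55% of all genes). This was Dgat1, with a tumor-associated change of 0.39 in lung and -0.54 in liver, a difference of 0.93 ± 0.14 (SE, adjusted p = 0.0159).

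Control liver was set against control lung to give the level of each gene in the organs. Of the 30 genes tested 27 passed, against 79.6% of all genes, 25 with higher values in liver (34.7% of all genes were called higher) and 2 with lower values (44.9%). All 15 mitochondrial shuttle and beta-oxidation genes were higher in liver, by 1.14 (Hadhb) to 6.27 (Acads), with a median of 2.51. All 5 peroxisomal genes were higher in liver, by 2.29 (Pex11a) to 6.46 (Ehhadh), with a median of 3.64. Bdh1 averaged 12.48 ± 0.12 in control livers and 3.58 ± 0.82 in control lungs (SD, n = 3 each), a difference of 8.90 ± 0.40 (SE, limma adjusted p = 7.15e-09) that depends on lung values near the lowest value. Ppara averaged 12.89 ± 0.20 in control livers and 5.34 ± 0.26 in control lungs, and Fabp1 16.68 ± 0.04 in control livers and 11.97 ± 0.84 in control lungs. The control lung value of Fabp1 includes the array rich in hepatocyte transcripts.

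Pdk4 went the other way, with 5.47 ± 0.41 in control livers and 8.48 ± 0.12 in control lungs (SD, n = 3 each, difference -3.001 ± 0.49, SE, limma adjusted p = 0.000221). Cidec averaged 2.38 ± 0.03 in control livers and 4.97 ± 0.73 in control lungs, at least 1.95-fold lower in liver, and entered this fit through the control lungs alone. Acot1 (9.99 ± 0.34 in control livers and 9.94 ± 0.46 in control lungs), Acot2 and Vnn1 did not pass. The number of calls was 26 to 28 under the alternatives tried. Both organs came from the same mice while the fit took the arrays as independent, and a gene's level cannot be set against another's on an array.

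**Figure D5:**
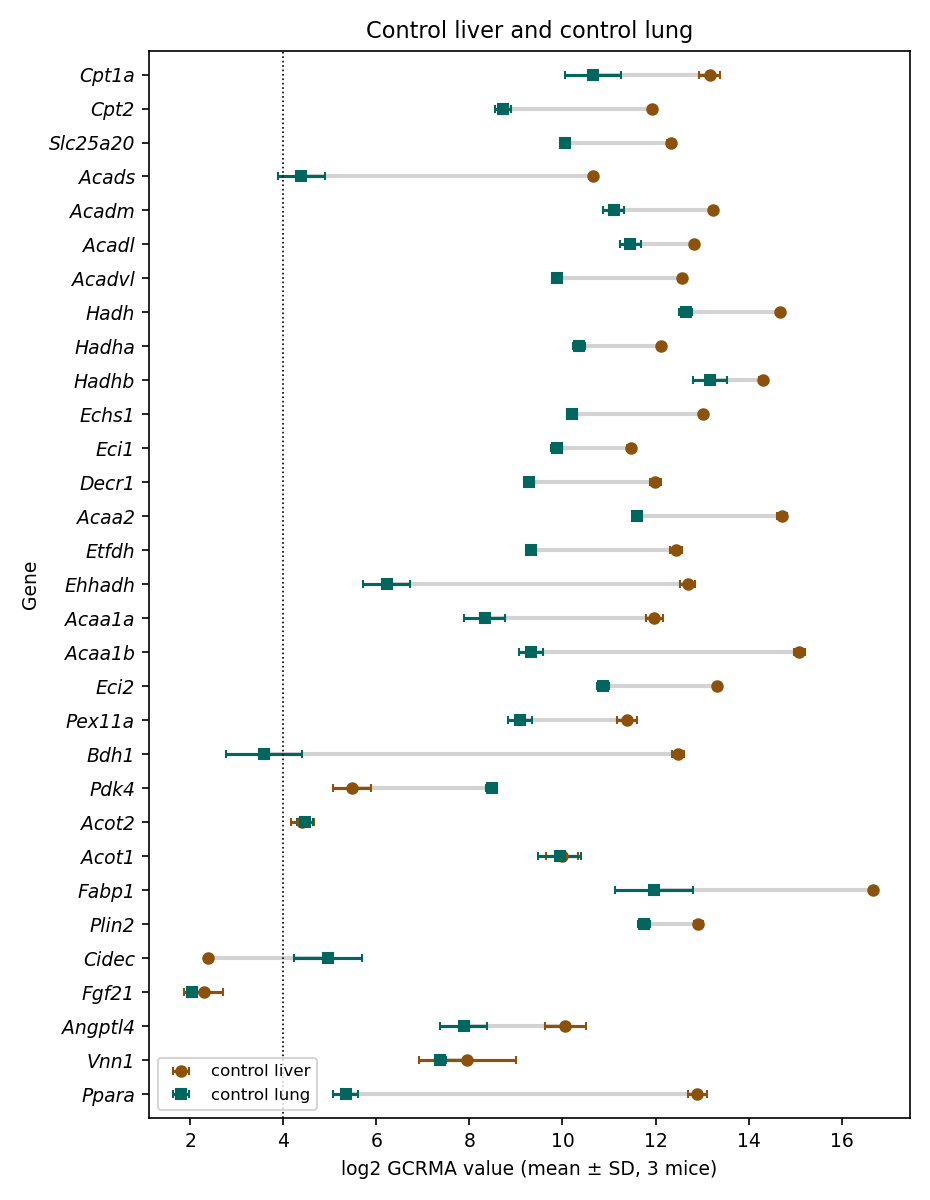
Mean log2 GCRMA value ± SD (x axis, n = 3 each) of each gene in control liver (brown circles) and control lung (green squares); the dotted line is the filter value of 4. Liver lies to the right for 25 genes that passed, and Pdk4 and Cidec lie further right in lung; rows may not be compared with each other, since probe sets differ.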

How the data were processed

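RNA of liver and lung was hybridised to Affymetrix mouse arrays, with 3 arrays in each of 4 groups taken from the sample titles. The deposited values are log2 expression summaries of probe sets made by the authors. GCRMA and limma are named in the submitters' processing notes, without versions or settings. GCRMA corrects background by probe sequence and sets the probe values of the arrays to 1 distribution before they are summarised, so a change is relative to the rest of the array. Some shift between arrays remained in the probe set values. A further quantile normalization moved the median change over all genes tested in liver from -0.07 to -0.02. The scale was checked on the values, which share a lowest value of 2.044. No batches are given in the labels.

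Probe sets were named from the platform annotation, with symbols updated by gene identifier. Of 22626 probe sets 20380 had 1 gene, 691 several and 1555 were not listed. For each of 12393 genes the probe set of highest mean across the 12 arrays was used, and 18 of the 31 members have 1 probe set. Genes whose log2 value exceeded 4 on 3 or more of the fitted arrays entered limma 3.58.1 in R 4.3.3 (lmFit and eBayes) and Benjamini-Hochberg adjustment over all genes tested, with a threshold of 0.05. Each tissue was fitted alone. The difference between tissues and control liver against control lung were fitted on all 12 arrays. The fits were tested on simulated data.

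All 31 members are named. Values on every array are given for members that passed, for members without overlap among the 8 largest changes and for the peroxisomal members, and those of further members were added after their values were seen. Of each list the genes that passed are named, or else the 2 with the smallest p. The members and lists were chosen with earlier results of these data known. Alternatives covered the filter, probe set choice, normalization, options of eBayes, weights for arrays, 1 fit of all 12 arrays, thresholds, blocks and each array left out. For the difference between tissues and for control liver against control lung, some alternatives were chosen after seeing the data. Replicate numbers, and the array numbers 7 to 12 that both tissues share, are not stated to mark a mouse. Promoters are from RefSeq (GRCm38.p6), with 27 of 31 members matched.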

Additional observations from a re-analysis of the deposited data

Results flagged for a closer look

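Slc25a20, the carnitine-acylcarnitine translocase gene, is listed because its tumor-associated change differed between the organs in the test of the difference itself. The change was 0.56 in lung and -0.21 in liver, a difference of 0.77 on the log2 scale (limma adjusted p = 0.0407, 12 arrays). All 3 tumor-bearing lungs lay above all 3 control lungs, and 2 of 3 tumor-bearing livers lay below all 3 control livers. On the second probe set of the gene the liver change was -0.02 and the difference was 0.54 (adjusted p = 0.152). The call was lost under 14 of 24 alternatives, most of them with 1 array left out. The highest adjusted p, 0.165, came with the array number as a block. The main fit took the arrays as independent although both organs came from the same mice. Groups of 3 arrays were not screened for single arrays that stand apart.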

How the results depend on the processing

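Among members, the liver count of 0 calls became 1 when the spread was fitted with a trend (Plin2), 1 with all 12 arrays in 1 fit (Acot1) and 3 at an adjusted p under 0.1 (Plin2, Acaa1b and Acot1), and the lung count of 0 became 2 with all 12 arrays in 1 fit (Slc25a20 and Cidec, which exceeded 4 only in control lungs). Leaving out 1 array gave 0 calls throughout in liver and in lung. The count of 1 for the difference between tissues became 0 with the mean of all probe sets, 0 without both lung arrays rich in hepatocyte transcripts and 3 at an adjusted p under 0.1 (Slc25a20, Acot1 and Cidec), and leaving out 1 array gave 0 to 2. No label says that replicate numbers pair the samples. Deviations of arrays with the same number correlated at -0.02, 0.10 and -0.02 in liver and -0.17, 0.24 and -0.30 in lung. Those of the same array number in lung and liver correlated at 0.01 to 0.08. With so few arrays in each group, these correlations cannot decide whether the numbers mark pairs. With the replicate number as a block liver and lung had 0 member calls, and with the array number as a block the difference between tissues had 0 against 1. The liver change of Ehhadh reversed to 0.0083, 0.0052 and 0.0362 without tumor replicate 3, control replicate 1 and control replicate 3, within a range of -0.1158 to 0.0362 over the arrays left out. The lung change of Acaa1b reversed to -0.2005 without tumor replicate 1, -0.1024 without control replicate 2, -0.1068 with both hepatocyte-rich arrays left out and -0.1467 without the 2 arrays lowest in cardiac markers, and ran up to 0.1683 without tumor replicate 3. The mitochondrial minus peroxisomal difference kept its sign in liver, and in lung it ran from -0.001, with medians, to 0.26. Control liver against control lung gave 26 to 28 calls. The cause of these shifts was not tested.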

Other observations

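The following genes were picked after their values were seen. Lpl, the lipoprotein lipase gene, read 10.33, 11.02 and 10.998 in tumor-bearing livers, against 9.34, 10.14 and 8.84 in control livers, without overlap (change 1.34 ± 0.37, SE, limma adjusted p = 0.106). In lung it overlapped, at 13.26, 12.84 and 13.18 in tumor-bearing mice, against 13.08, 13.27 and 13.39 in control mice. Acot3 and Acot4, thioesterases related to Acot1, overlapped between groups in liver. Acot3 read 9.43, 11.13 and 10.47 in tumor-bearing livers, against 12.07, 12.01 and 10.26 in control livers. Acot4 read 8.64, 9.77 and 9.18 in tumor-bearing livers, against 9.75, 9.47 and 9.16 in control livers. Tumor-bearing replicate 1 was the lowest liver array for Acot1, Acot3 and Acot4.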
